A study of Glycyrrhiza uralensis with 15 samples.

Results

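Droughted seedlings of licorice (Glycyrrhiza uralensis, a legume of dry regions) grown with the soil bacterium Bacillus pumilus strain G5 were set against droughted seedlings without it. The bacterium-treated group (DB) was kept at 35 to 45% of the water content of saturated sand and received G5. The group under drought alone (D) was kept at the same moisture with no addition. Watered seedlings (CK), kept at 65 to 75%, show where an unstressed plant lies for the same genes. Each group had 3 libraries, so the DB and D comparison used 6 of the 15 libraries in the study. The remaining libraries, 3 of droughted seedlings with silicon at 2 mM (DSi) and 3 with silicon and G5 together (DBSi), entered the estimate of the spread and are given as values beside some results. The labels give neither the moisture nor the silicon dose of DBSi. All seedlings were whole plants of 45 days, raised from seed in sterilized desert sand without nutrients, so organs were not separated. Whether replicates of a group came from separate pots is not in the labels. The p-values measure the spread among these libraries, part or all of which may be technical.

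Bacillus pumilus belongs to the spore-forming bacteria that live on and around roots, and strains of it are studied as plant growth promoters. Under water shortage, plants build up the hormone abscisic acid, close their stomata, and change the expression of genes for osmotic protection, antioxidant defence, photosynthesis and growth. Root-associated bacteria are known to alter hormone balance and the plant's stress response. Which of these pathways the genes below belong to cannot be read from the deposited tables, which give gene IDs without names. Genes are therefore described by ID, level and behaviour. No marker of an organ could be checked, and in whole seedlings a smaller share of cells of a type and less RNA per cell cannot be told apart.

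Full-length cDNA was read on a nanopore instrument, and the authors deposited CPM, the share of a library's assigned reads scaled to the same fixed total in every library. The DB libraries held 3221579 to 3345982 reads and the D libraries 3039422 to 3488568. A CPM of 1 or more in at least 3 of the 15 libraries was reached by 22654 of 30197 genes, and these were tested. The Spearman correlation across tested genes ran from 0.919 to 0.953 between libraries of the same group in DB and D and from 0.895 to 0.935 between a DB and a D library. DB-3, D-2 and CK-3 stood apart from the others of their groups on the principal components. On the second component DB-3 scored -75.2, against -5.72 and 14.7 for DB-1 and DB-2, and D-2 scored -47.3, against -21.4 and -4.95 for D-1 and D-3. CK-3 stood apart in the same direction, at -45.4, against 12.9 and -3.17 for CK-1 and CK-2. On the first component DB-3 scored 46.8, against 0.437 and 8.47, and D-2 scored 20.5, against -36.9 and -44.7. The first and second components held 22.1 and 16.6% of the variance. Other groups were spread too, with DBSi-2 at 8.52 on the second component, against 45.8 and 48.6 for DBSi-1 and DBSi-3.

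Under drought with G5, 81 genes were higher and 30 genes were lower than under drought alone. The 111 genes are 0.49% of those tested (limma, Benjamini-Hochberg adjusted p below 0.05). The higher genes are 0.358% and the lower genes 0.132% of those tested. At an unadjusted p under 0.05, 1192 genes were higher and 1573 lower. Among called genes the rises outnumbered the falls under each other scaling too, with 87 and 23 after median-of-ratios scaling, 77 and 23 after quantile normalization, 71 and 17 in edgeR and 305 and 151 in DESeq2. Over all tested genes the median log2 difference (DB minus D, on the log2(CPM + 1) scale) was -0.06, against -0.02 to -0.01 under the other scalings.

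**Figure D1:**
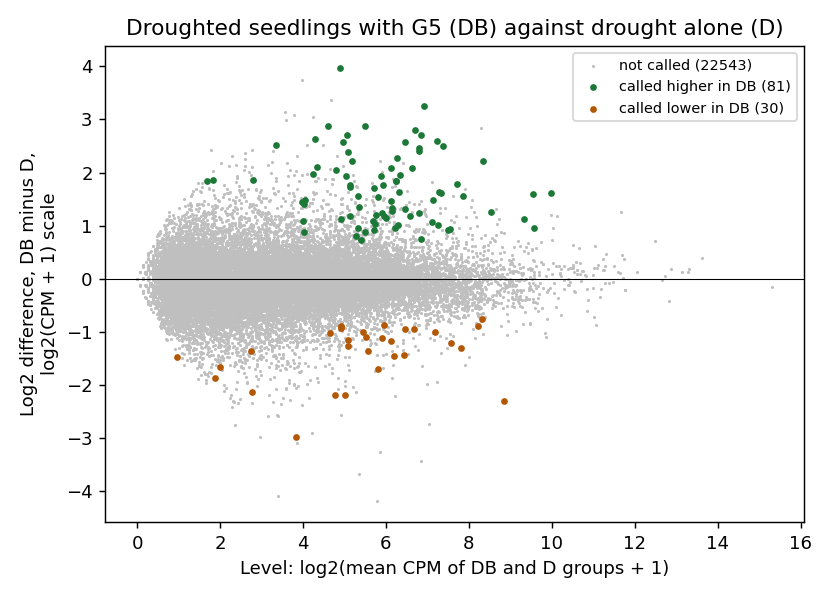
Each point is a tested gene, with its level (log2 of the mean CPM of the DB and D groups plus 1) on the x axis and its log2 difference (DB minus D, log2(CPM + 1) scale) on the y axis. The 81 genes called higher in DB and the 30 called lower are coloured, and many uncalled genes lie as far from 0 as called ones. An absolute log2 difference of 1 or more was reached by 1390 tested genes. Of the called genes, 65 lay between 1 and 2 and 28 at 2 or more.

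Among the 81 raised genes the median log2 difference was 1.61 and the range 0.73 to 3.98. For 23 of them it was 2 or more, for 47 between 1 and 2, and for 11 below 1. Among the 30 lowered genes the median was -1.24, and 5 genes had a fall of 2 or more on the log2 scale, 18 a fall between 1 and 2, and 7 a fall below 1. The raised genes had a median of 90.5 CPM in DB, 30.8 CPM in D and 49.6 CPM in CK. The lowered genes had a median of 26.7 CPM in DB, 64.2 CPM in D and 48.1 CPM in CK. The higher of the DB and D means was 10 CPM or more for 104 of the 111 genes and 500 CPM or more for 7. Its median was 83.5 CPM for the called genes and 11.9 CPM for all tested genes.

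All 81 raised genes had every DB library above every D library, and all 30 lowered genes had every DB library below. The same held for 7.39% of tested genes in the higher direction and 8.91% in the lower one. The called genes were chosen on these same libraries, which favours such separation. The median SD of log2(CPM + 1) was 0.23 in DB and 0.28 in D for the called genes, against 0.33 in both groups for all tested genes. The test divides by this spread and the called genes were more abundant, so the selection favours a smaller SD.

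Summed over the 81 raised genes, the DB libraries held 12334, 12980 and 15150 CPM, the D libraries 4204, 4736 and 5071 CPM, and the CK libraries 8178, 6092 and 8117 CPM. Summed over the 30 lowered genes, the DB libraries held 1366, 1558 and 1542 CPM, the D libraries 3629, 3868 and 3613 CPM, and the CK libraries 2703, 3719 and 2841 CPM. The genes were chosen on the DB and D libraries, so the gap between these groups in the sums is a description, and CK, DSi and DBSi took no part in choosing the direction. For the raised genes all 3 CK libraries lay between DB and D. For the lowered genes CK-1 and CK-3 lay between them and CK-2 lay among the D libraries. Without the most abundant of these genes in D and CK, Glyur000008s00001267, the sums were 1204, 1413 and 1397 CPM in DB, 2865, 3301 and 2625 CPM in D, and 2053, 2246 and 2111 CPM in CK, and all 3 CK libraries lay between. The DSi libraries ran from 7704 to 10028 CPM for the raised and from 1871 to 2036 CPM for the lowered genes. The DBSi libraries ran from 11395 to 14918 CPM and from 1284 to 1516 CPM. The raised genes took 1.23 to 1.51% of all assigned reads in DB and 0.42 to 0.507% in D.

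**Figure D2:**
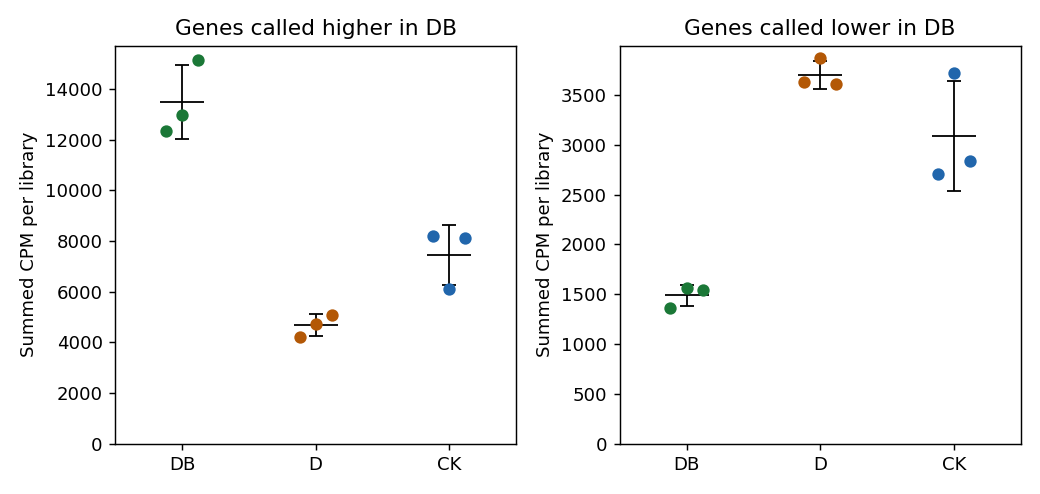
The y axis gives the CPM summed over the 81 genes called higher in DB (left) and over the 30 called lower (right), with a point per library and bars for mean and SD of 3 libraries. CK lies between DB and D except for CK-2 in the lowered genes, which at 3719 CPM lies among the D libraries and, without the gene Glyur000008s00001267, at 2246 CPM lies below them.

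Rises and falls were named from genes whose call was kept in at least 12 of 15 fits, ordered by the change in mean CPM. Each fit left out a single library, with CK, DSi and DBSi libraries included. The rule was met by 26 rises and 4 falls. Glyur000315s00012782 was raised 4.64-fold. It stood at 432, 620 and 548 CPM in DB, 85.1, 116 and 143 CPM in D, and 190, 146 and 264 CPM in CK. The lowest DB library was above the highest library of both other groups. Its log2 difference was 2.22 (SE 0.28, limma adjusted p = 0.00344), and its level was 307 ± 82 CPM in DSi and 841 ± 211 CPM in DBSi (SD, n = 3). The deposited isoform table splits this gene mainly into a pair of transcripts, both of which rose. Glyur000315s00012782.1 averaged 223 CPM in DB and 42.6 CPM in D (limma adjusted p = 0.0213). ONT.9792.4 averaged 310 CPM in DB and 71.9 CPM in D (limma adjusted p = 0.00588).

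ONT.5505, a gene with an ID of the other series used in the tables, was raised 2.36-fold. It stood at 531, 459 and 575 CPM in DB, 177, 232 and 254 CPM in D, and 391, 317 and 440 CPM in CK. The 3 groups did not overlap, with CK in the middle. The gene averaged 390 ± 115 CPM in DSi and 750 ± 15 CPM in DBSi (SD, n = 3). Its log2 difference was 1.25 (SE 0.21, limma adjusted p = 0.0204), and in limma fits that left out DB-1, DB-3 or D-1 the adjusted p was 0.0905, 0.0871 and 0.0991. It also lost its call with the DB and D libraries alone in the fit. One transcript, ONT.5505.1, made up 85.1% of the gene in DB and 84.3% in D.

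Glyur000008s00001267 was the most abundant lowered gene in D and CK. It stood at 163, 145 and 145 CPM in DB, 764, 567 and 987 CPM in D, and 650, 1473 and 730 CPM in CK. The DB libraries were alike and far below every library of D and CK, whose ranges overlapped. The gene was 5.12-fold lower in DB than in D (log2 difference -2.31, SE 0.27, limma adjusted p = 0.00258). It was 6.3-fold lower in DB than in CK (limma adjusted p = 0.00207). It averaged 220 ± 26 CPM in DSi and 80.1 ± 11 CPM in DBSi (SD, n = 3). Its isoforms did not add up to the gene in the deposited tables and are not described.

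Glyur001467s00033959 fell 4.95-fold. It stood at 13.2, 7.06 and 11.2 CPM in DB, 71.1, 43.1 and 41.3 CPM in D, and 28.2, 36.7 and 36.3 CPM in CK. The 3 groups did not overlap, and CK was again in the middle. The gene averaged 13.8 ± 3 CPM in DSi and 6.85 ± 3.3 CPM in DBSi (SD, n = 3). Its log2 difference was -2.2 (SE 0.31, limma adjusted p = 0.00763), and without D-1 the adjusted p was 0.0513. Nearly all of it was the transcript ONT.17524.2, at 10.3 CPM in DB and 50.8 CPM in D (limma adjusted p = 0.0182).

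**Figure D3:**
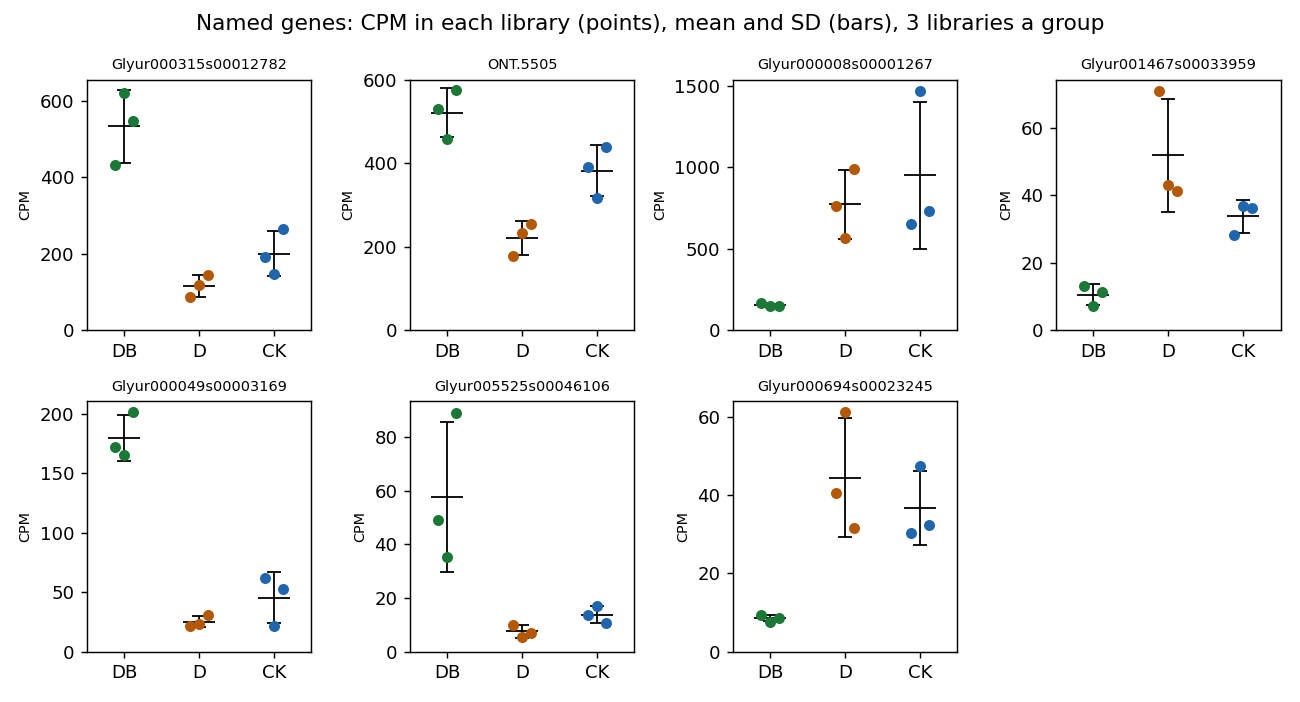
Each panel is a gene, with CPM on the y axis from 0, a point per library and bars for mean and SD of 3 libraries in DB, D and CK. DB lies above both other groups for Glyur000315s00012782, ONT.5505, Glyur000049s00003169 and Glyur005525s00046106, and below both for Glyur000008s00001267, Glyur001467s00033959 and Glyur000694s00023245.

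The list was shorter when any single DB or D library was left out, which also leaves fewer samples in that group. In place of 111 genes, 33 were called when DB-1 was left out, 50 when DB-2 was and 25 when DB-3 was. The counts were 24 when D-1 was left out, 61 for D-2, 58 for D-3, 69 for DBSi-2 and 68 for DSi-2. Of the 111 genes themselves, 31, 42 and 25 kept their call when a DB library (1, 2, 3 in turn) was left out, and 22, 48 and 53 when a D library was. A core of 19 genes, 17 raised and 2 lowered, kept its call in all 15 such fits, and 30 of the 111 kept it in none of the 6 fits that left out a DB or D library. Without both DB-3 and D-2, the libraries of these groups that stood apart, 4 genes were called, 3 higher and 1 lower. Of the 7 genes drawn in the plot of named genes, Glyur005525s00046106 and Glyur000008s00001267 kept their call there and the others lost it. With the DB and D libraries alone in the fit, 41 genes were called higher and 4 lower.

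For most of the changed genes the watered plants lay between the droughted plants with and without G5. The CK mean on the log2(CPM + 1) scale fell between the DB and D means for 77 of the 81 raised genes (95.1%) and 28 of the 30 lowered genes (93.3%). Among the raised genes CK was nearer to DB for 28 and nearer to D for 49. Among the lowered genes it was nearer to DB for 8 and nearer to D for 20. With the D mean set to 0 and the DB mean to 1, the median place of CK was 0.447 for raised and 0.273 for lowered genes. Over tested genes with a log2 difference of 1 or more, called or not, it was 0.522. There CK was nearer to D for 227 and nearer to DB for 214. At -1 or less the median was 0.337, with CK nearer to D for 372 and nearer to DB for 208. Over all tested genes it was 0.789 where DB was above D and 0.122 where DB was below. The higher place for raised genes was thus not particular to the called genes.

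Both ends of this scale were chosen for lying far apart, which leaves more room for CK between them. Over all tested genes whose DB and D means differed, CK lay between for 36.3%. Over the 1390 tested genes with an absolute log2 difference of 1 or more, called or not, it lay between for 73.5%, and for 94.6% of the called genes. No test is attached to these shares. The share among called genes was 87.9% when CK-3 was left out, 90.9% when DB-1 was, and 91.8 to 96.6% when any other single library was.

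**Figure D4:**
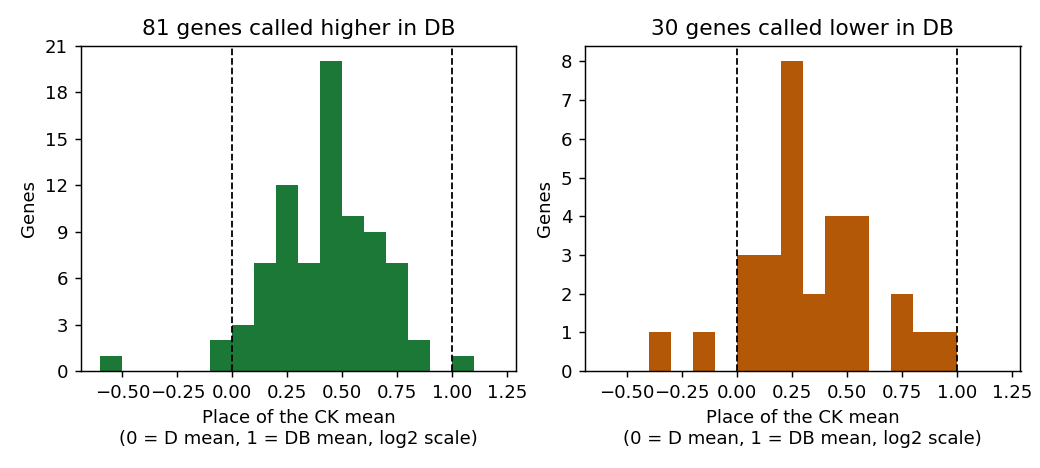
The x axis gives the place of the CK mean on a scale where the D mean is 0 and the DB mean is 1 (log2(CPM + 1) means of 3 libraries), and the y axis the number of genes. Dashed lines mark D and DB. Of 81 raised genes 77 and of 30 lowered genes 28 lie between the lines.

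Library by library the pattern was less complete. In 30 raised and 6 lowered genes, all 3 CK libraries lay in the gap between the DB and D libraries. The matching share of all tested genes was not computed, so these counts are descriptions only. For 69 of the 81 raised genes every DB library was above every CK library (4.47% of tested genes), and for 41 every CK library was above every D library (8.78% of tested genes). For 23 of the 30 lowered genes every DB library was below every CK library (11.8% of tested genes), and for 12 every CK library was below every D library (3.13% of tested genes). The called genes were chosen on these same DB and D libraries, which favours both patterns. No share was computed for uncalled genes with a like difference between DB and D, so these counts too are descriptions.

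The comparisons with CK share libraries with the one above, so their values for these genes are given side by side and are not independent of it. In DB against CK, 25 genes (0.11% of those tested) were called over the whole table, 11 higher and 14 lower (0.0486% and 0.0618%). This split turned with the tool, with 15 higher and 11 lower in edgeR and 132 higher and 95 lower in DESeq2. At an unadjusted p under 0.05 there were 695 higher and 1928 lower in limma, and 1140 higher and 1126 lower in edgeR. In D against CK, 11 genes were called, all lower in D (0.0486%). edgeR called 0 genes higher and 5 lower in D, and DESeq2 8 higher and 90 lower. At an unadjusted p under 0.05, 432 genes were higher and 1374 lower in limma, and 673 were higher and 1100 lower in edgeR. Of the 81 genes raised in DB over D, 9 were also called higher in DB than in CK, with a median log2 difference from CK of 0.89 over the 81. Of the 30 lowered genes, 4 were also called lower in DB than in CK, with a median of -0.83. The same genes had medians of -0.74 (raised) and 0.39 (lowered) in D against CK. Over all tested genes the medians were -0.14 in DB against CK and -0.07 in D against CK. The DB against CK count was 13 when DB-2 was left out, 8 for DB-3 and 10 for CK-2.

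Among raised genes also called against CK, at 10 CPM or more, those farthest above CK were Glyur000049s00003169 and Glyur005525s00046106. Glyur000049s00003169 stood at 172, 165 and 201 CPM in DB, 21.5, 23.4 and 30.7 CPM in D, and 62.1, 21.3 and 52.6 CPM in CK. CK overlapped D and no CK library came near DB. DSi averaged 110.5 ± 26 CPM and DBSi 153 ± 77 CPM (SD, n = 3). The gene was 7.13-fold higher in DB than in D (limma adjusted p = 0.00403) and 3.96-fold higher than in CK (limma adjusted p = 0.0477). Its main transcript, Glyur000049s00003169.1, averaged 152 CPM in DB and 20.3 CPM in D and carried 85.2% of the change.

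Glyur005525s00046106 stood at 49, 35.3 and 89.1 CPM in DB, 10, 5.59 and 6.99 CPM in D, and 13.6, 17.1 and 10.7 CPM in CK. DB-3 was the highest of the DB libraries, and all 3 groups were apart. It was 7.67-fold higher in DB than in D (limma adjusted p = 0.00242) and 4.19-fold higher than in CK (limma adjusted p = 0.0255). Here DSi averaged 13.1 ± 0.98 CPM and DBSi 26.7 ± 5.3 CPM (SD, n = 3).

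Among lowered genes also called against CK, at the same minimum, those farthest below CK were Glyur000008s00001267, described above, and Glyur000694s00023245. Glyur000694s00023245 stood at 9.26, 7.67 and 8.69 CPM in DB, 40.4, 61.2 and 31.6 CPM in D, and 30.4, 47.5 and 32.2 CPM in CK. D and CK overlapped, with DB well below both. It was 5.2-fold lower in DB than in D (limma adjusted p = 0.00725) and 4.3-fold lower than in CK (limma adjusted p = 0.0255). The level was also low with silicon, at 10.2 ± 4.3 CPM in DSi and 7 ± 2.1 CPM in DBSi (SD, n = 3).

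A few called genes broke the pattern, and they are named here after their values were seen. CK lay beyond DB only for ONT.13195, at 69.9 ± 4.9 CPM in DB, 33.8 ± 5.3 CPM in D and 72.7 ± 18 CPM in CK (SD, n = 3). DB and CK overlapped there. On the log2(CPM + 1) scale, CK lay on the far side of D for 3 raised genes. Glyur000816s00024880 averaged 20.7 ± 4 CPM in DB, 9.29 ± 2 CPM in D and 5.99 ± 0.76 CPM in CK (SD, n = 3). For Glyur000019s00002090 and Glyur000391s00016057 the D and CK means were close, at 21.9 and 22.2 CPM in the first and 39.2 and 37.3 CPM in the second, with DB at 57.5 and 101 CPM. In the first of these the plain CPM mean of CK was not beyond that of D, and the log2 means differed by 0.008. CK lay beyond D for 2 lowered genes, Glyur000008s00001267 and Glyur000595s00018298. The second averaged 0.923 ± 0.54 CPM in DB, 5.03 ± 1.4 CPM in D and 7.85 ± 2.3 CPM in CK (SD, n = 3). Of these 6 genes, all but Glyur000008s00001267 lost their call against D when certain single DB or D libraries were left out.

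One called gene was also called in D against CK. Glyur000022s00002063, named for that reason after its values were seen, stood at 86.7, 58.3 and 90.3 CPM in DB, 8.6, 9.54 and 10.9 CPM in D, and 72.5, 36.7 and 33.7 CPM in CK. DB and CK overlapped and both were far above D. Its log2 difference was 2.87 (SE 0.33, limma adjusted p = 0.00258) in DB against D and -2.1 (limma adjusted p = 0.0381) in D against CK.

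Genes with IDs beginning with ONT made up 9 of the 111 called genes (8.11%) and 10.2% of those tested. Of the 9, 6 were raised and 3 lowered. Among the lowered was the only called gene without a read in any DB library, ONT.4218, named after its values were seen. It held 18 reads over the 3 D libraries (1.15, 2.96 and 1.52 CPM). The gene was at least 2.05-fold lower in DB, counting 3 reads in each DB library as the floor. It also had no read in any DSi or DBSi library or in CK-1 and CK-2, and stood at 0.29 CPM in CK-3. Its absence was therefore not limited to DB. Its call (limma adjusted p = 0.031) was lost when any one DB or D library was left out. A count of 0 allows up to that floor, and intervals and floors cover counting error only, since the amplified reads carry no molecular identifiers.

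Individual transcripts were tested next. The isoform table held 35504 isoforms past the same minimum, of which 77 (0.217%) were called, 57 higher (0.161%) and 20 lower (0.0563%) in DB. Of these, 60 belonged to genes in the list of 111, and 52 of the 111 genes had at least 1 called isoform. Isoform reads are also reads of the gene, so this overlap is largely built in. Among the 77, 27 were the only tested isoform of their gene. In place of 77, 44, 16 and 13 were called when a DB library (1, 2, 3 in turn) was left out, 29, 25 and 46 when a D library was, and 51 when DSi-2 was.

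Within the changed genes, a single isoform usually carried most of the change. Isoforms added up exactly to the gene in all 15 libraries for 107 of the 111 genes. Of these, 70 (65.4%) had 2 or more isoforms, against 49.1% of tested genes joined in the same way. Called genes were more abundant, at a median of 83.5 CPM in the higher group against 11.9 CPM for all tested genes. Whether abundance accounts for the difference in isoform number was not tested. In the 70 genes with 2 or more isoforms, the isoform with the largest change carried a median of 91.2% of the change in mean CPM. That isoform was picked for its change. An isoform that holds most of a gene also carries most of its change when the makeup stays alike. Neither this share nor the next count was computed for uncalled genes. The most abundant isoform was the same in DB and D for 67 of the 70. The 3 exceptions were Glyur000119s00012196, Glyur000324s00015435 and Glyur001820s00032857. In the lowered gene Glyur001820s00032857 (25.8 ± 5.9 CPM in DB and 66.7 ± 4.9 CPM in D, SD, n = 3; limma adjusted p = 0.031) the transcript ONT.18246.1 stood at 17.3, 16.9 and 0 CPM in DB and 55, 64.2 and 64.7 CPM in D. ONT.18246.2 stood at 0, 11.4 and 24.5 CPM in DB and was listed at 0 in all 3 D libraries, so the exchange differed between DB libraries. The call of this gene was lost when any one DB or D library was left out.

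The isoforms with the largest changes were in part present in one group and without reads in the other. ONT.2559.2 had no read in any DB library and stood at 17.5, 15.1 and 31.6 CPM in D and 16.8, 13.1 and 33.4 CPM in CK. It was at least 23.4-fold lower in DB than in D, with 3 reads per DB library as the floor (limma adjusted p = 0.000265). It ran from 16.5 to 21.6 CPM in DSi and from 12.3 to 21.4 CPM in DBSi, the other group with G5. ONT.1841.1 had no read in DB and stood at 31, 67.4 and 22.2 CPM in D and 15.5, 10.5 and 44.4 CPM in CK, at least 43.9-fold lower in DB than in D (limma adjusted p = 0.000589). DBSi held it at 22.3 to 31.2 CPM. Both isoforms were therefore missing from DB libraries and from no other library.

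Isoforms listed at 0 in all 3 libraries of a group and at 5 CPM or more in each of the other 12 libraries were rare, a criterion chosen after these values were seen. There were 2 for DB, 0 for D, 1 for CK, 0 for DSi and 1 for DBSi, and no gene met the criterion in any of the 5 groups. Among called isoforms, 4 lowered ones had no read in DB and 2 raised ones had no read in D. Besides those described, these were ONT.5294.6 and ONT.4218.1, without reads in DB, and ONT.3290.5, without reads in D.

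Of the raised isoforms, ONT.13827.3 stood at 9.56, 35.3 and 54.3 CPM in DB, had no read in D, and stood at 6.15, 0 and 5.81 CPM in CK. It was at least 36-fold higher in DB than in D, with 3 reads per D library as the floor (limma adjusted p = 0.0224), and the call was lost without any one D library, DB-2 or DB-3. ONT.1041.1 stood at 46.3, 29.8 and 50.9 CPM in DB, 0, 0 and 3.65 CPM in D, and 27.5, 47 and 36.6 CPM in CK. It was 34.8-fold higher in DB than in D (limma adjusted p = 0.00326), and its DB and CK libraries overlapped. ONT.1041.1 averaged 47.2 ± 22 CPM in DSi and 47.4 ± 13 CPM in DBSi (SD, n = 3), so only D was low. Its gene, Glyur000014s00002534, averaged 76.4 CPM in DB, 25.1 CPM in D and 37 CPM in CK and did not pass the threshold (limma adjusted p = 0.0507). ONT.1041.1 itself averaged 42.3 CPM in DB and 1.22 CPM in D, so most of the gene's level in D lay outside this isoform.

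Whether a gene changed its makeup of isoforms was tested separately from its level. Among 7187 genes with 2 or more tested isoforms, 20 (0.278%) were called by the F-test of diffSplice in limma. At an unadjusted p under 0.05 there were 563. In place of 20, the count was 13 without D-2 and 33 without DB-1. None of the 20 was in the list of 111. That list is only 0.49% of tested genes, so an overlap of 0 is near that share. The lowest adjusted p belonged to Glyur000043s00003827, the gene that holds ONT.2559.2 (limma diffSplice adjusted p = 3.06e-07). Of the summed CPM of its 3 tested isoforms, ONT.2559.2 made up none in DB, 11.3 ± 3% in D and 11 ± 6.7% in CK (SD, n = 3). ONT.2559.1 made up 98 ± 0.47% in DB, 86.4 ± 2.9% in D and 86.3 ± 6% in CK (SD, n = 3). The gene as a whole averaged 137 CPM in DB, 185 CPM in D and 204 CPM in CK, and its level did not pass the threshold (limma adjusted p = 0.349).

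The next was Glyur000072s00008124 (limma diffSplice adjusted p = 3.21e-06), with 7 tested isoforms. Of their summed CPM, ONT.3881.1 made up none in DB, 8.3 ± 1% in D and 1.08 ± 1.9% in CK (SD, n = 3). It was also listed at 0 in CK-1, CK-2, all 3 DBSi libraries and 2 of the 3 DSi libraries, so its absence was not limited to DB. ONT.3881.13 made up 8.64 ± 1.3% in DB, 15.8 ± 1.2% in D and 13.4 ± 2.9% in CK (SD, n = 3). ONT.3881.7 made up 10.5 ± 9.1% in DB and none in D, and was absent from DB-2 as well. The gene averaged 348 CPM in DB, 270 CPM in D and 237 CPM in CK (limma adjusted p = 0.393 for DB against D). Both calls held in all 20 alternatives run for each gene.

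**Figure D5:**
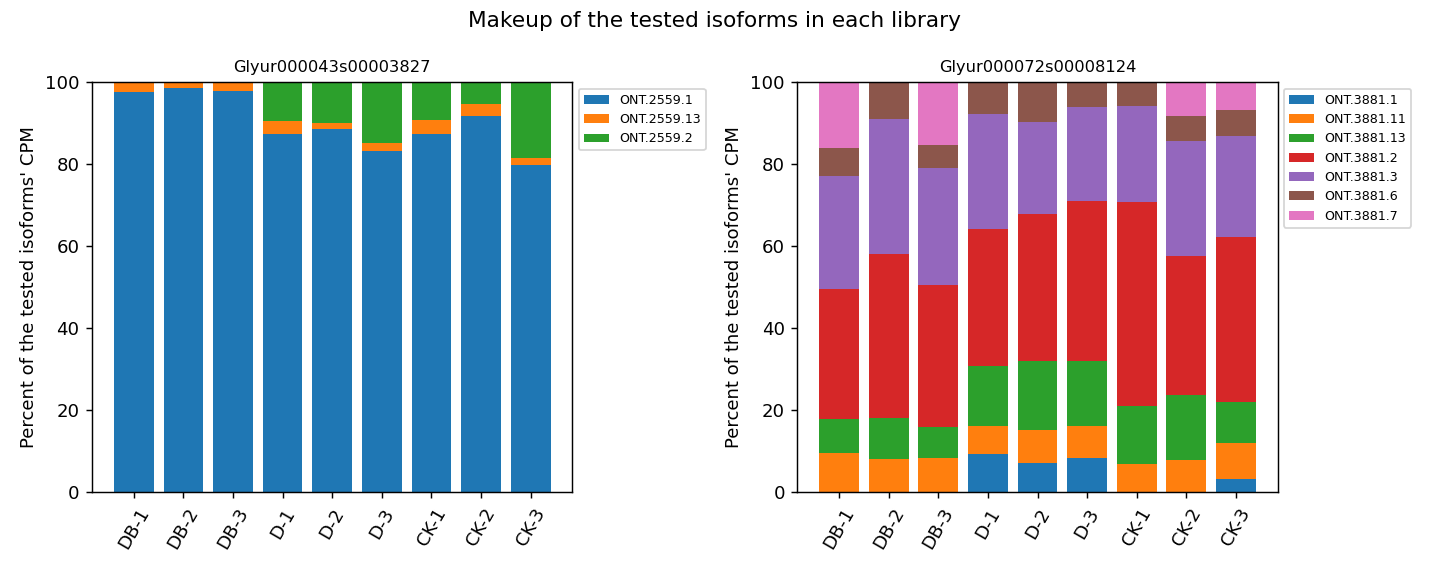
Stacked bars give the percent of the summed CPM of a gene's tested isoforms that each of them held in each DB, D and CK library. ONT.2559.2 is missing from the 3 DB bars of Glyur000043s00003827, and ONT.3881.1 is missing from the 3 DB bars of Glyur000072s00008124 and from the CK-1 and CK-2 bars, and is present in the 3 D bars.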

How the data were processed

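Sample titles gave the group and the replicate number, and columns were matched to samples by title. The authors deposited CPM per gene and per isoform, per the file headers with a column per library. The submitters' processing notes list minimap2. How reads were counted, filtered and shared among near-identical genes, and on which build, is not given in the sources used here. Values of such genes are uncertain. Whole reads were recovered for 100% of values within 0.01 of a read, 3039422 to 4043823 reads per library. An ONT locus was joined to a gene where it alone supplied exactly the gene's missing reads in all 15 libraries (11727 genes). CPM are not counts, so limma 3.58.1 in R 4.3.3, on log2(CPM + 1) with an intensity trend and all 15 libraries, was the main test (two-sided, threshold 0.05). Log2 differences on this scale understate the change of low genes, and folds are ratios of mean CPM. On the recovered reads, edgeR 4.0.16 (quasi-likelihood, TMM) called 88 genes and DESeq2 1.42.0 called 456. Scripts were tested on simulated data.

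Named genes were called, did not overlap between DB and D, and kept their call in at least 12 of 15 leave-one-out fits, of which the 2 rises and 2 falls with the largest change in mean CPM were taken. Named isoforms had the largest log2 differences at 10 CPM or more, named isoform-use genes the lowest adjusted p, and genes named with CK were also called against CK. The comparison and these rules were chosen with earlier results of these data known. The replicate numbers did not pair the samples. Sequences and gene names were not used here.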

Additional observations from a re-analysis of the deposited data

How the results depend on the processing

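The count of 111 genes (81 higher, 30 lower) ran from 24 to 154 when each library was left out in turn, from 19 to 115 for the higher and from 4 to 39 for the lower genes. Without limma's trend it was 51 (40 higher, 11 lower), with library weights 230 (151 and 79), with DB and D libraries alone 45 (41 and 4), in DESeq2 456 (305 and 151), and without DB-3 and D-2, an alternative chosen after seeing the data, 4 (3 and 1). The lower genes numbered 19 with no filter and 17 in edgeR. A replicate block gave 71 genes, 17 of them lower. Deviations of same-numbered DB and D libraries correlated at 0.03, -0.14 and -0.15, and 1 of 3 DB libraries correlated best with its own number, so the numbers were taken as names only. The share of called genes with CK between was 88.3% with library weights, 85.1% in DESeq2 and 75% of 4 genes without DB-3 and D-2, and 87.9 to 96.6% with libraries left out in turn.

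DB against CK gave 11 genes without the trend, 0 with only the compared groups (2116 at an unadjusted p under 0.05 in limma), 227 in DESeq2, 9 without DB-3 and D-2, and 8 to 35 with libraries left out. D against CK gave 4 with a filter at 5 CPM, 0 with only the compared groups (1529 unadjusted in limma), 5 in edgeR, 98 in DESeq2, 4 without DB-3 and D-2, and 3 to 23 with libraries left out. Called isoforms numbered 38 without the trend, 33 with only the compared groups and 13 to 103 with libraries left out. Isoform use gave 43 genes with no filter, 12 with a filter at 5 CPM or a replicate block, and 13 to 33 with libraries left out. Over all alternatives run for the named genes, isoforms and isoform-use genes, 502 values kept their call and 114 lost it. The named genes and isoforms did not overlap between DB and D, so leaving out a library could not turn their direction. Changes seen with fewer libraries come with fewer samples in the fit, and for the other settings the cause was not tested. At this depth 1 read is worth about 0.3 CPM, so genes of a few CPM rest on few reads.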
